A study of Mus musculus with 6 samples.

Results

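The Ifit and Oas genes encode proteins that bind foreign RNA in the cytoplasm of infected cells. The 9 genes described here are Ifit1, Ifit2, Ifit3, Ifit3b, Oas1a, Oas2, Oas3, Oasl1 and Oasl2. They were chosen by gene name, and all 9 were found among the 14005 genes of the deposited table. RNA was sequenced after polyA selection from bone marrow-derived macrophages (BMDM), primary cells grown from mouse marrow, in 2 groups of 3 libraries. The control group was wild-type C57BL/6J. The other group, labelled Txn1 KO, combined the Txn1 allele Txn1tm1.1Ees/J with a Cre recombinase knocked into Lyz2 (B6.129P2-Lyz2tm1(cre)lfo/J), a gene of macrophages and other myeloid cells. By these labels the Cre insertion and the Txn1 allele always occur together, and the wild-type libraries carry neither. The labels give C57BL/6J as strain background and pooled male and female cells for both groups, and name no treatment, infection or age. Whether the replicates are separate animals or cultures is not stated. The p-values below therefore reflect the spread among these 6 samples, part or all of which may be technical. The study asked how loss of thioredoxin-1, the disulfide reductase encoded by Txn1, affects NLRP1 inflammasome genes. The antiviral genes lie outside that question.

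Type I interferon acts on its receptor, the kinases JAK1 and TYK2 and the transcription factor complex ISGF3, which includes STAT2 and IRF9. ISGF3 binds the interferon-stimulated response element (ISRE) near the start sites of its target genes, among which the Ifit and Oas genes are classic examples. Among the IFIT proteins, IFIT1 holds RNA whose cap lacks the methyl marks of host mRNA. OAS enzymes are switched on by double-stranded RNA and make short oligoadenylates, a second messenger of the antiviral response. Macrophages keep a low interferon signal even without infection, so these transcripts are present in resting cells.

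The 4 Ifit genes lie in a cluster on the plus strand of chromosome 19 (GRCm38, GENCODE M21). They are Ifit2 at chr19:34550694-34576419, Ifit3 at chr19:34583531-34588731, Ifit3b at chr19:34607970-34613401 and Ifit1 at chr19:34640871-34650009. The 3 Oas genes lie on the minus strand of chromosome 5, Oas2 at chr5:120730333-120749853, Oas3 at chr5:120753098-120777661 and Oas1a at chr5:120896256-120907521. Oasl2 (chr5:114896936-114912234) and Oasl1 (chr5:114923240-114937915) are neighbours on the plus strand of the same chromosome. RefSeq promoter windows of GRCm38.p6, from 250 bases before to 50 after a start site, were found for 8 of the 9 genes (9 windows, with 2 for Ifit2). The ISRE core GAAANNGAAA, searched on both strands (TTTCNNTTTC on the other), occurred in windows of 5 of these 8, against 3.43% of all 32817 windows of that length. The 200 bases before the start site are shown for 4 of the 5, 5′ to 3′ on the gene's own strand, with the ISRE cores in capitals, because these genes share the element and differ in how far their transcripts changed. The Ifit1 stretch is chr19:34640689-34640888 (plus strand), that of Ifit3 chr19:34583329-34583528 (plus strand), that of Oas1a chr5:120907526-120907725 (minus strand) and that of Oas3 chr5:120777660-120777859 (minus strand).
Ifit1: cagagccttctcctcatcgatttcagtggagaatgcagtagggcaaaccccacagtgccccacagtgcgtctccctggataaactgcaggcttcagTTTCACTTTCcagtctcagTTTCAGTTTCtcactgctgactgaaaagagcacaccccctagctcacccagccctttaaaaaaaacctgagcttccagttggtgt
Ifit3: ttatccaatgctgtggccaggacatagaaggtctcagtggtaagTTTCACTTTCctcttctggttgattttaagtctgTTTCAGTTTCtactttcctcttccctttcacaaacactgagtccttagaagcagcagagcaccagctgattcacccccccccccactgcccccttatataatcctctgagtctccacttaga
Oas1a: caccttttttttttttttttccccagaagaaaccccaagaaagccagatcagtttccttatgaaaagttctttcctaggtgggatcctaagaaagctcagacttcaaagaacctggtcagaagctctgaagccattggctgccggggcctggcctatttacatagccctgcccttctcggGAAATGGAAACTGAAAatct
Oas3: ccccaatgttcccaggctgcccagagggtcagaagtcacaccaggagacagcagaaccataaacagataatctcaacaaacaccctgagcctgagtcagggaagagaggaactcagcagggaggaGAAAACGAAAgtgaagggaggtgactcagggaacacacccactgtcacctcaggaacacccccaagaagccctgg
Ifit1 and Ifit3 carry the same pair of cores in the same order, TTTCACTTTC and then TTTCAGTTTC, and so does the window of Ifit3b. The 2 cores begin 19 bases apart in Ifit1 and 34 apart in Ifit3 and Ifit3b. Oas1a has 2 cores that overlap, GAAATGGAAA and GAAACTGAAA, the nearer of which begins 14 bases before the start site. Oas3 has a single core, GAAAACGAAA, beginning 75 bases before the start site. The windows of Ifit2, Oasl1 and Oasl2 held no match to these letters.

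The libraries held 22508616 to 38726953 reads in listed genes, and the 9 genes had from 401 reads (Oasl1 in Txn1 KO library 3) to 13391 (Ifit2) in a library. Values are the authors' normalized counts, reads divided by 1 size factor per library. Lyz2 had 361315 to 368284 normalized counts in wild type, against 1775 to 4327 in the Txn1 KO-labelled libraries, which follows the Cre knock-in. Txn1 had 12580 ± 532 and 12349 ± 367 (SD, n = 3 each). Its whole-gene value cannot show a deletion of part of the gene, so it does not check the Txn1 label. Of 10 macrophage markers, all were listed, and Csf1r, Adgre1 and Cd68 had at least 16391 normalized counts in every library. Both groups are labelled as pooled from males and females, but they differed in Y-linked transcripts: all 4 Y-linked genes examined fell, with sums of 2059 to 2198 normalized counts in wild type and 1158 to 1233 in the Txn1 KO-labelled libraries. None of 8 T or NK cell markers and none of 6 erythroid markers was listed. The libraries of wild-type replicate 1 and Txn1 KO library 3 stood apart through liver transcripts: albumin (Alb) had 642.9 and 580.0 normalized counts there and at most 0.838 in the other 4. Results are therefore also given without these libraries.

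All 4 Ifit transcripts fell to between 50.4% and 54.6% of their wild-type level in the Txn1 KO-labelled libraries. The 5 Oas and Oasl transcripts differed less: Oasl1 fell to 68.0%, Oas1a to 83.8% and Oasl2 to 87.7%, and Oas3 and Oas2, at 92.1% and 93.2%, did not pass the test. In all, 7 of 9 genes passed in the downward direction and 0 in the upward direction (limma, adjusted p under 0.05 over all 13977 genes tested), where 9.97% of all tested genes passed downward and 11.5% upward. All 9 members were among the genes tested. The median log2 change was -0.57 over the 9 genes, -0.97 over the 4 Ifit genes and -0.19 over the 5 Oas and Oasl genes, against -0.0049 over all tested genes. Log2 changes are Txn1 KO minus wild type on the scale log2(normalized count + 1). In these bulk samples, fewer cells making a transcript and less of it per cell cannot be told apart.

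Ifit1, which binds capped RNA without the host's methyl mark, had 3552, 4565 and 4721 normalized counts in wild-type replicates 1 to 3, and 2336, 2458 and 1848 in Txn1 KO libraries 1 to 3. Each Txn1 KO library lay below each wild-type library, and the lowest of either group was the one with Alb transcripts. The change was -0.95 ± 0.096 (log2, SE; limma adjusted p = 1.32e-06).

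Ifit2, whose protein assembles with the other IFIT proteins, had 7863, 10369 and 11228 normalized counts in wild type, against 5514, 5657 and 3693 in the Txn1 KO-labelled libraries. The groups did not overlap, and the order within each group was like that of Ifit1, with the same library at the bottom. The change was -0.997 ± 0.13 (log2, SE; limma adjusted p = 2.06e-05).

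Ifit3 had 8339, 10297 and 10681 normalized counts in wild type against 5778, 6154 and 4083, a change of -0.89 ± 0.11 (log2, SE; limma adjusted p = 1.44e-05). Ifit3b, in the same cluster, had 1439, 1987 and 2072 against 985.4, 1121 and 664.8 normalized counts, a change of -1.003 ± 0.15 (limma adjusted p = 7.18e-05). Both pairs of groups were apart. The 2 genes are near copies: 41.1% of the 75-base stretches of the Ifit3 transcript occur in Ifit3b and 35.7% of those of Ifit3b occur in Ifit3, so the split of reads between them is uncertain. Their sum does not depend on that split, and went from 11605 ± 1600 to 6262 ± 1336 normalized counts (SD, n = 3 each), 54.0% of wild type, again without overlap.

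**Figure D1:**
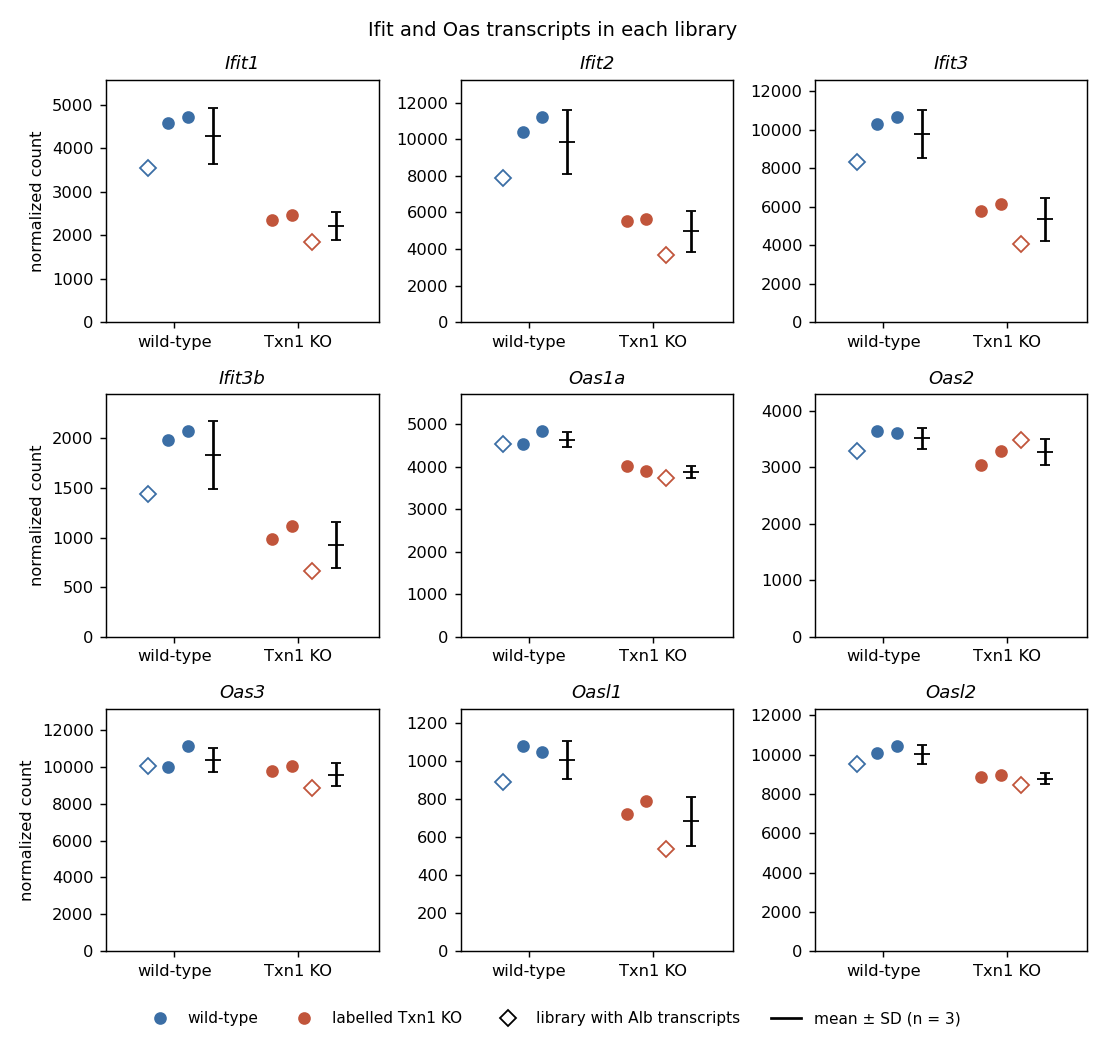
Normalized counts of the 9 genes (vertical axes from 0, 1 panel per gene) in the 3 wild-type libraries and the 3 labelled Txn1 KO, with the mean and SD beside the points and open diamonds for the 2 libraries with Alb transcripts. The groups are apart in 7 panels and overlap for Oas2 and Oas3, and the open diamonds lie lowest within both groups in all 4 Ifit panels.

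Among the enzymes that make oligoadenylates, Oas1a had 4527, 4537 and 4837 normalized counts in wild type, against 4014, 3913 and 3727 in the Txn1 KO-labelled libraries. The groups did not overlap, with a gap that was small against the level itself. The change was -0.25 ± 0.041 (log2, SE; limma adjusted p = 0.000185). Oas1a shares 47.6% of its 75-base stretches with Oas1g, and the sum of the 2 genes went from 6367 ± 316 to 5329 ± 234 normalized counts (SD, n = 3 each), 83.7% of wild type and without overlap.

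Oas2, which carries repeated synthetase domains, had 3291, 3638 and 3605 normalized counts in wild type, against 3041, 3293 and 3488 in the Txn1 KO-labelled libraries. The groups overlapped, and Txn1 KO library 3, the lowest of its group for the other 8 genes, was here the highest. The difference of -0.10 ± 0.051 (log2, SE) did not pass (limma adjusted p = 0.180), and its 95% interval ran from a ratio of 0.865 to 1.00. It passed at -0.15 without Txn1 KO library 3 (limma adjusted p = 0.0351) and at -0.19 without both libraries with Alb transcripts (0.0183).

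Oas3, the largest enzyme of the family and a sensor of long double-stranded RNA, had 10059, 9962 and 11126 normalized counts in wild type against 9761, 10060 and 8872. Txn1 KO library 2 lay level with wild-type replicate 1, so the groups overlapped. The difference was -0.12 ± 0.048 (log2, SE; limma adjusted p = 0.0924), with a 95% interval of the ratio from 0.859 to 0.988. With a term for the libraries with Alb transcripts it passed at the same size (limma adjusted p = 0.0415), and without both of them it did not (-0.09, adjusted p = 0.285).

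The OAS-like proteins carry ubiquitin-like domains. Oasl1, which lacks synthetase activity and restrains translation of Irf7 mRNA, had 890.5, 1079 and 1047 normalized counts in wild type, against 722.2, 789.4 and 539.7 in the Txn1 KO-labelled libraries. The groups did not overlap, and the change of -0.57 ± 0.11 (log2, SE; limma adjusted p = 0.000793) lay between those of the Ifit genes and the other Oas genes. Oasl2, the relative that kept synthetase activity in mice, had 9513, 10089 and 10451 against 8879, 8992 and 8481 normalized counts. Its change was -0.19 ± 0.039 (log2, SE; limma adjusted p = 0.00171), also without overlap. The groups did not overlap, with Txn1 KO lower, for 7 of the 9 genes, against 17.6% of all tested genes.

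A gene on the opposite strand overlaps Oas2 (Gm43068) and another overlaps Oasl1 (Gm13822), and no source used here says whether reads were counted by strand. Both had low values, 12.8 and 12.1 normalized counts on average in wild type, against 8.59 and 10.5 in the Txn1 KO-labelled libraries.

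**Figure D2:**
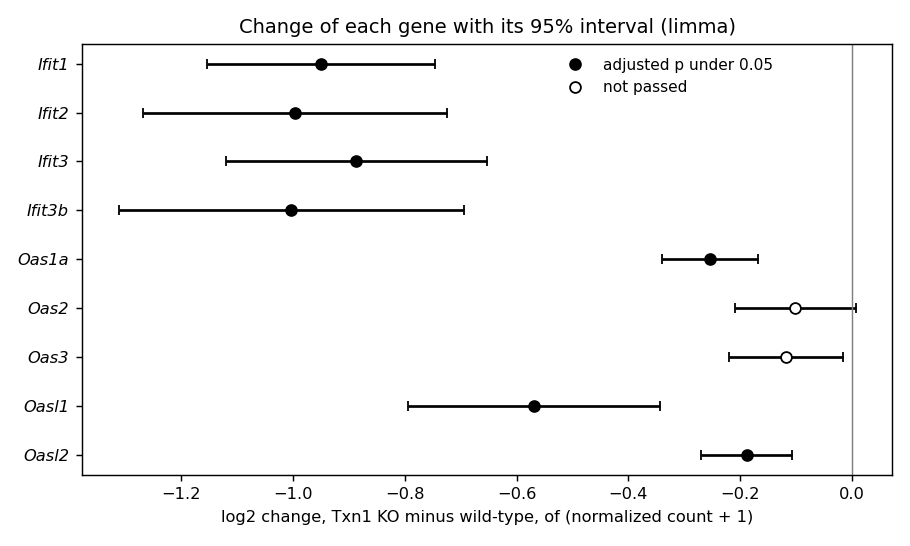
Log2 change of each of the 9 genes (points, Txn1 KO minus wild type) with its 95% interval from limma, filled where the adjusted p was under 0.05. The 4 Ifit genes lie between -0.89 and -1.003, Oasl1 at -0.57, and the remaining 4 genes between -0.10 and -0.25.

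The intervals of the 4 Ifit genes together span -1.31 to -0.65. They did not overlap those of Oas1a, Oas2, Oas3 and Oasl2, whose lowest bound was -0.34. The interval of Oasl1, -0.79 to -0.34, overlapped those of all 4 Ifit genes. Per library, the mean log2 value of the 4 Ifit genes minus that of Oas2 and Oas3 was -0.43, -0.11 and -0.11 in wild type, against -0.90, -0.88 and -1.42 in the Txn1 KO-labelled libraries. The Ifit transcripts were thus lower relative to Oas2 and Oas3 in each Txn1 KO library than in any wild-type library. The difference between groups was -0.85 (log2), with an exact permutation p = 0.1, two-sided, the smallest that 3 against 3 allows. These 2 sets of genes were picked with their changes known, so the size is a description.

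In wild type, levels per kilobase of annotated exon were highest for Ifit3, at 5600 ± 720 normalized counts per kb (SD, n = 3). Ifit2 (2501 ± 445) and Oas1a (2458 ± 93.4) came next and overlapped over libraries. Ifit1 (1611 ± 239), Oasl2 (1572 ± 74.2) and Oas3 (1469 ± 91.4) followed, each overlapping the next. Ifit3b (916.3 ± 172) and Oas2 (788.9 ± 43.0) also overlapped, and Oasl1 was lowest at 385.6 ± 38.7 normalized counts per kb. Oas1a had 2061 ± 77.5 per kb in the Txn1 KO-labelled libraries, where Ifit2 had 1262 ± 279, so that the ranges of these 2 genes, which overlapped in wild type, were apart there. Exon length is the union over all transcripts, which understates genes with long rare transcripts. Divided by the longest transcript instead, Oasl2 had 3208 per kb in wild type and ranked above Ifit2 (2572). Oas3 then had 2200 per kb and ranked above Ifit1 (1611). The levels of Ifit3, Ifit3b and Oas1a also depend on how reads from stretches shared with other genes were assigned, which is not known.

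The Ifit genes also had larger SDs within a group than most of the Oas genes. The median SD of log2 values was 0.25 in wild type and 0.33 in the Txn1 KO-labelled libraries for the 4 Ifit genes, and 0.080 and 0.095 for the 5 Oas and Oasl genes. Over the 7261 tested genes with a wild-type mean of at least 500 normalized counts, the medians were 0.050 and 0.052. Oasl1, with SDs of 0.15 and 0.29, was nearer to the Ifit genes. For each Ifit gene, the low library of either group was the one with Alb transcripts. Wild-type replicate 1 had 70.9% to 79.5% of the mean of the other 2 wild-type libraries over the 4 Ifit genes, and Txn1 KO library 3 had 63.1% to 77.1% of the mean of the other 2 in its group. The medians over all tested genes were 99.8% and 99.9%. Both libraries were the lowest of their group for 7 of the 9 genes (all but Oas2 and Oas3), which held for 13.5% of all tested genes.

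**Figure D3:**
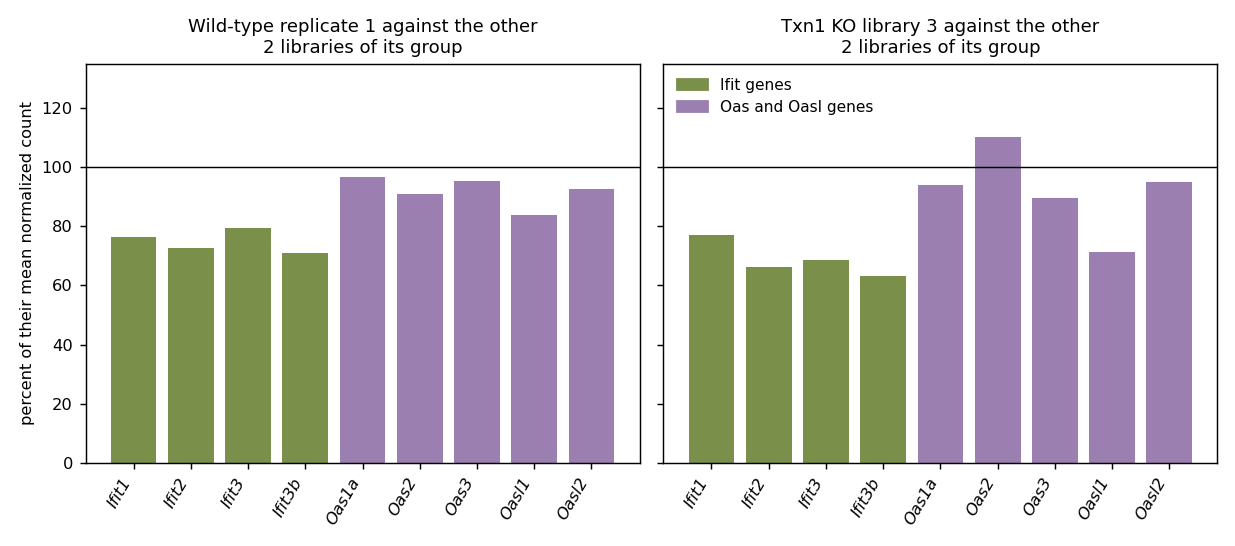
Normalized count of each gene in wild-type replicate 1 (left) and Txn1 KO library 3 (right), the 2 libraries with Alb transcripts, as a percent of the mean of the other 2 libraries of its group, with a line at 100. The Ifit bars lie between 63.1% and 79.5%, and the Oas2 bar on the right, at 110%, is the only one above the line.

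Because each group held 1 such library, the groups could be compared within and across them. Between the 2 libraries with Alb transcripts, the difference (log2, Txn1 KO minus wild type) was -0.94 for Ifit1, -1.09 for Ifit2, -1.03 for Ifit3 and -1.11 for Ifit3b, with no replicate check. Among the other 4 libraries it was -0.95 ± 0.040, -0.95 ± 0.041, -0.81 ± 0.039 and -0.95 ± 0.065 (log2, SE), with limma adjusted p-values from 2.39e-06 to 3.06e-05. The Ifit changes were therefore about as large with and without these libraries. Oasl1 had -0.49 among the 4 (limma adjusted p = 0.00114), Oas1a -0.24 (0.00409) and Oasl2 -0.20 (0.00310). In all, 8 of 9 genes passed downward among the 4 libraries, Oas3 being the exception, where 6.89% of all tested genes did. With a term for these libraries in the fit, 8 of 9 passed too, Oas2 being the exception, against 10.9% of all tested genes. The term itself was -0.38 to -0.58 (log2) for the Ifit genes and -0.37 for Oasl1. Among markers of liver cells 8 of 12 were listed, and their sum was 2663 and 2635 normalized counts in these libraries and 1519 to 1756 in the other 4. Most of each sum was Trf, which had 1398 to 1521 in every library. Alb, Ttr, Fgb, Fga and Fgg had at most 0.838 in the other 4. Apoa2 had 13.2 to 26.5 over the 6 libraries. Hp had 199.7, 108.0 and 127.4 normalized counts in wild type, against 229.5, 226.8 and 329.7 in the Txn1 KO-labelled libraries. Hp was the 1 liver marker that passed, upward by 0.88 (log2; limma adjusted p = 0.00250; 0.00316 without the libraries with Alb transcripts).

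Cell type markers also differed between the groups, as did the 4 Y-linked genes, Eif2s3y (-0.97), Kdm5d (-1.21), Uty (-1.02) and Ddx3y (-0.50, log2), which fell without the libraries with Alb transcripts too. Xist, the RNA of the inactive X chromosome in female cells, rose by 0.29 (log2) but did not pass without those libraries (limma adjusted p = 0.139). Of the 10 macrophage markers 6 fell and 2 rose, where 9.97% of all tested genes fell and 11.5% rose. Besides Lyz2, the complement genes C1qa (-0.76) and C1qb (-0.74), the Fc receptor gene Fcgr1 (-0.71), the mannose receptor gene Mrc1 (-0.43) and Cd68 (-0.12) fell, and Mertk, a receptor for the uptake of dying cells (0.64), and the integrin gene Itgam (0.48) rose (log2). Without the libraries with Alb transcripts Cd68 did not pass (limma adjusted p = 0.180), and the other 7 did. Of 12 stromal markers 9 fell and 0 rose (7 of the 9 also without those libraries, Col1a1 and Col3a1 being the exceptions, at limma adjusted p = 0.287 and 0.0907), and their sum was 3011 to 3371 normalized counts in wild type, against 1312 to 2329 in the Txn1 KO-labelled libraries. Of 6 listed markers of conventional dendritic cells (8 in the list) 3 rose, Itgax (0.66), Ccr7 (0.53) and Batf3 (0.66, log2). Batf3 did not pass without the libraries with Alb transcripts (limma adjusted p = 0.0939). The sums, 3710 to 4010 and 5702 to 6375 normalized counts, were mostly Itgax, with means of 3525 and 5568. Flt3 (0.88), Xcr1 (-0.39) and Zbtb46 (-0.29, log2) did not pass, with group means of 9.08 to 16.5 normalized counts. Plasmacytoid dendritic cells are strong producers of interferon, and 3 of 7 of their markers were listed, 2 of which fell. These were Tcf4 (-0.24, log2, from a mean of 2203 to 1870 normalized counts) and Cox6a2 (-1.25, from 58.4 to 24.3). Siglech, their defining surface marker, had 7.65 to 25.5 normalized counts over the 6 libraries and did not pass (limma adjusted p = 0.331). Of 5 listed neutrophil markers (9 in the list), 2 fell, S100a9 and Ngp (each -0.83, log2). Neither passed without the libraries with Alb transcripts (limma adjusted p = 0.0545 and 0.0514). Mpo (0.76), S100a8 (0.16) and Ltf (-1.02, log2) did not pass. The sums of the 5 markers were 291.4 to 316.1 normalized counts in wild type and 255.7 to 296.8 in the Txn1 KO-labelled libraries. The part of these cells, and of the difference in Y-linked transcripts, in the lower Ifit and Oas levels was not tested.

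Of 9 further Ifit and Oas family genes 6 were listed, 4 of which fell and 0 rose, against 9.97% and 11.5% of all tested genes. Ifit1bl1, a relative of Ifit1 in the same cluster, fell from 392.5 ± 109 to 153.8 ± 46.1 normalized counts (SD, n = 3 each). Its change was -1.35 ± 0.21 (log2, SE; limma adjusted p = 0.000129). Oas1b, whose product is truncated in common laboratory strains, changed by -0.35, Oas1c by -0.29 and Oas1g by -0.26 (log2). Oas1b and Oas1g did not pass without the libraries with Alb transcripts (limma adjusted p = 0.0647 and 0.112). Ifit1bl2 (-0.13) and Oas1h (-1.15, from 17.9 to 7.43 normalized counts) did not pass.

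Among genes tied to the oligoadenylates, Abce1, a ribosome recycling factor, and Pde12, which degrades oligoadenylates, had differences of 0.02 and 0.08 (log2) and did not pass. Of 4 listed genes that mark host RNA as self, 2 fell and 1 rose, against 9.97% and 11.5% of all tested genes. Cmtr1, which adds the methyl mark that keeps IFIT1 off host caps, fell from 563.1 ± 38.9 to 443.2 ± 14.3 normalized counts. Its change was -0.34 ± 0.073 (log2, SE; limma adjusted p = 0.00240). Adar, which edits double-stranded RNA, fell by 0.17 and Rnmt, which methylates the cap guanine, rose by 0.21 (log2). Cmtr2 had a difference of 0.12 and did not pass.

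Of 9 RNA sensors and their adaptor 8 fell and 0 rose, where 9.97% of all tested genes fell and 11.5% rose. The median of the 9 was -0.25 (log2). Zbp1, which senses nucleic acids in the Z form, changed by -0.56, Ifih1, which encodes the sensor MDA5, by -0.37, Dhx58, its relative LGP2, by -0.29 and Eif2ak2, the kinase PKR, by -0.24. Mavs, the adaptor, was the gene that did not pass (-0.04). The 8 changes lay between -0.13 and -0.56, all nearer to 0 than those of the 4 Ifit genes.

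Upstream, none of the 16 type I interferon genes in the list was among the listed genes, whose lowest mean is 9.28 normalized counts. Of the receptor chains and kinases, Ifnar1 (-0.06), Ifnar2 (-0.04) and Jak1 (0.02) did not pass, and Tyk2 passed at -0.13 (log2; limma adjusted p = 0.0406; 0.123 once the libraries with Alb transcripts were left out). Of 8 ISGF3 and interferon regulatory factor genes 2 fell and 1 rose, against 9.97% and 11.5% of all tested genes. Irf7, the factor that amplifies interferon production, changed by -0.63 (log2, from 8855 ± 339 to 5746 ± 397 normalized counts), Stat2 by -0.24, and Irf5, an activator of inflammatory genes, rose by 0.12. Irf9, the DNA-binding subunit of ISGF3, had -0.11 and did not pass (limma adjusted p = 0.0614). Among 5 listed feedback genes, Isg15, a ubiquitin-like modifier, changed by -0.48 and Usp18, which removes it and blocks the receptor, by -0.45, and the other 3 did not pass.

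**Figure D4:**
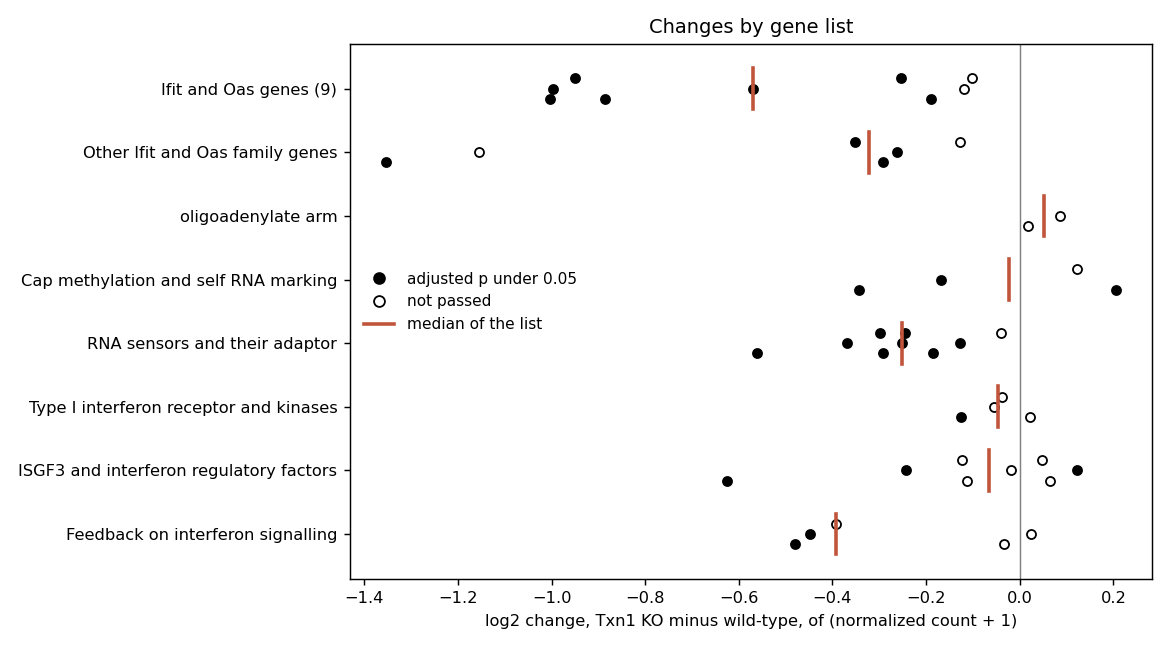
Log2 change (Txn1 KO minus wild type) of every tested gene of the 9 Ifit and Oas genes and of 7 related lists, filled where the limma adjusted p was under 0.05, with a bar at each list's median. The Ifit genes lie further left than every gene of the other lists except Ifit1bl1 and Oas1h, and the receptor and kinase genes lie within 0.13 of 0.

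Likeness of pattern was measured as the root mean square difference of centred log2 values over the 6 libraries, among 11123 other genes with a mean of at least 50 normalized counts. Nearest to the median Ifit profile were Cmpk2, a mitochondrial nucleotide kinase gene (difference 0.033), Rsad2, which encodes the antiviral enzyme viperin (0.067), Sod3, an extracellular superoxide dismutase gene (0.11), Sema7a, a semaphorin gene (0.11), and Mx1, an antiviral GTPase gene (0.12). The median over all ranked genes was 0.54. Cmpk2 had a mean of 6946 normalized counts in wild type, against 3597 in the Txn1 KO-labelled libraries, and Rsad2 had 11151 and 6038. Nearest to Oas2 and Oas3 were Bmp2k (0.011), Iqcc (0.013), Zc3hav1, the antiviral protein ZAP (0.020), Slc2a8 (0.020) and Dhx9 (0.020), where the median was 0.11. These profiles are nearly flat, so that many genes lie close to them.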

How the data were processed

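PolyA-selected RNA of 6 mouse BMDM libraries was measured, 3 per group. The submitters' processing notes name STAR 2.5.2b, Trimmomatic 0.36, DESeq2 and bcl2fastq 2.20, and the build GRCm38 (mm10). How reads were counted, whether by strand, and on which annotation, the sources used here do not say. The deposited signal per library is the authors' read count divided by a size factor: 100% of values in each library are whole multiples of its smallest step within 0.01 reads. The log2 fold changes and p-values in the authors' deposited table served only as an alternative. Columns whose names hold BMDM without Txn1KO were taken as wild type, since the other 3 hold Txn1KO.

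Because the deposited values are normalized, limma 3.58.1 (R 4.3.3, trended prior) on log2(normalized count + 1) was the main test. It covered the 13977 genes whose mean reached 10 (28 did not), two-sided with Benjamini-Hochberg adjustment. Changes of low genes are understated on this scale. Where rows shared a symbol, as for Itgam, the row with the higher mean was used. Counts of 3 reads, the floor of detection, correspond to 2.33 to 4.04 normalized counts (counting error only). edgeR 4.0.16 and DESeq2 1.42.0 were run on the recovered whole reads, and edgeR called 2969 genes. The exact permutation test ran in Python 3.11.15.

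The members, lists and tests were chosen with earlier results of these data known. From the lists, 2 genes are not reported here and are left out of list counts and medians. All members are named, and from each list up to 4 called genes with the smallest p, or the whole list where at most 5 were measured; genes that complete a small count, single markers, Y-linked genes and overlapping genes were chosen after their values were seen. The comparisons around the libraries with Alb transcripts were added after seeing the data. Promoters are RefSeq's and positions GENCODE M21's, both on GRCm38. On simulated libraries with 200 changed genes (13844 tested), 73.5% were recovered at a log2 change of 0.5 and 82.8% at 1, with 12 of 166 calls false. The simulation changed far fewer genes than were called in the real libraries, and set no library apart as those with Alb transcripts are. Its shares therefore need not hold for these data.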

Additional observations from a re-analysis of the deposited data

How the results depend on the processing

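The direction was the same for all 9 genes under all 19 alternatives each was run with. These were other pseudocounts, filters and scalings, limma without a trend, a stricter threshold, edgeR, DESeq2, the authors' deposited statistics and a replicate block. Each library was also left out in turn, and the libraries with Alb transcripts were treated in 2 ways. The filters, the threshold, the missing trend, the replicate block and the term for libraries with Alb transcripts left each change as it was. These could not alter its direction. DESeq2 on the recovered reads gave nearly the authors' own values, so these 2 count as about 1 alternative. Without a trend in limma, 4 of the 9 genes passed and 1525 genes in all, against 7 and 3001. Ifit3b, Oasl1 and Oasl2 were then lost, at limma adjusted p-values of 0.0619, 0.0910 and 0.0837. The cause was not tested. At an adjusted p under 0.01, by construction fewer genes passed, 1833, while 7 of the 9 did. Leaving out 1 library gave 7 to 8 of the 9 genes and 2088 to 2820 genes in all, and the Ifit to Oas2 and Oas3 difference ranged from -0.95 to -0.67 (log2). Without both libraries with Alb transcripts that difference was -0.78. No alternative ended the call of an Ifit gene other than Ifit3b, or of Oas1a.

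With the replicate number as a replicate block, 7 of the 9 genes and 2675 genes passed. The numbers do not appear to pair the samples: deviations from the group means, over 13977 genes, correlated at -0.27, 0.14 and -0.33 for same-numbered libraries and at 0.43 for wild-type replicate 1 with Txn1 KO library 3. These 2 are the libraries with Alb transcripts.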

Other observations

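Of the 13977 tested genes, 10077 had a RefSeq promoter window under the same symbol. Of the 398 with an ISRE core GAAANNGAAA in a window, 86 (21.6%) fell and 40 (10.1%) rose in the Txn1 KO-labelled libraries, and of the 9679 without one 1010 (10.4%) fell and 1176 (12.2%) rose. The median log2 changes were -0.05 and -0.0041. The 398 include 5 of the genes described above, 4 of which fell. These shares are a description, with no test.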
